A study of Mus musculus with 8 samples.

Results

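UDP-glucuronosyltransferases (genes named Ugt1a, Ugt2a, Ugt2b and Ugt3a) and cytosolic sulfotransferases (Sult) were followed in the livers of alcohol-fed mice with and without hepatocyte Stat3. The families were chosen with earlier results of these data known, and their members by symbol alone. Ugt members were all rows of the deposited gene table whose symbol begins with Ugt1, Ugt2 or Ugt3, then a or b and a number. Sult members were all rows whose symbol begins with Sult and a number. This gave 42 of 22183 genes, 21 Ugt and 21 Sult, of which 29 (17 Ugt and 12 Sult) had at least 10 counts in 4 or more libraries and are described in detail. Whole-liver RNA was sequenced in 8 libraries. The 4 control libraries came from Stat3flox/flox mice, whose Stat3 alleles are floxed and whose label names no Cre. The 4 knockout libraries came from Stat3flox/flox;Alb-Cre mice, where Cre is made from the albumin promoter, which is active in hepatocytes. Which liver cells had lost the gene was not measured here. All mice in both groups were gavaged each day for 2 weeks with 20% alcohol at 15 µL/g, and no group without alcohol was analysed here. Age, sex and the number of animals behind a library are not in the labels, so the tests speak for the spread among these libraries, which may be technical. Because the RNA is from whole tissue, fewer cells of a type and less RNA per cell cannot be told apart.

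Both enzyme families make lipophilic molecules more soluble, so that they can leave the body in bile or urine. UDP-glucuronosyltransferases of the endoplasmic reticulum transfer glucuronic acid from UDP-glucuronate to bilirubin, phenols, steroids, bile acids and many drugs. Sulfotransferases of the cytosol transfer a sulfonate group from the donor PAPS to phenols, catecholamines, oestrogens, hydroxysteroids and bile acids. In mouse liver several Sult2a and Sult3a genes are textbook examples of transcripts that are far more abundant in females than in males, a difference tied to the sex-specific pattern of growth hormone secretion.

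Library totals ranged from 15998391 to 19474696 estimated counts. Stat3 served as the check of the labels. It fell from 66.7 ± 13.4 to 27.6 ± 1.95 CPM (counts scaled to library size; mean ± SD, n = 4 each), a log2 change of -1.27 (SE 0.17, adjusted p = 0.0469), in edgeR's quasi-likelihood test, with every knockout library below every control library. That call was lost without control 1, 2 or 4 or knockout 2, 3 or 4 (adjusted p 0.0564 to 0.227), and with total count scaling (adjusted p = 0.0961), limma-voom (0.0670) and a replicate block (0.107). Libraries of the same genotype differed in sex-linked reads. Counts summed over the Y-linked genes Uty, Kdm5d, Eif2s3y and Ddx3y were 5, 1, 1672 and 294 in controls 1 to 4, and in knockouts 1 to 4 they were 2, 728, 934 and 842. Control 1, control 2 and knockout 1, with 5 or fewer, are called libraries without Y-linked reads and the others Y-positive. Control 4, knockout 3 and knockout 4 carried Y-linked reads together with transcripts known to be female-biased. The sulfotransferase results are given beside these reads, since the labels state no sex.

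The Ugt1a genes were counted from a locus in which each first exon is private and the following exons are common. Their coding sequences are printed across this junction, because the common part decides how reads were divided among them. All 9 Ugt1a members lie on the plus strand of chromosome 1 (GRCm38) and join a private first exon to the same downstream exons, of which the first spans 88215044 to 88215175. For the 5 most abundant members, 849 to 870 coding bases came from the private exon and 735 from the common ones. The lines give the last 45 private coding bases in lower case and the first 45 common bases in capitals, 5′ to 3′, from GENCODE M21 transcripts.
Ugt1a1: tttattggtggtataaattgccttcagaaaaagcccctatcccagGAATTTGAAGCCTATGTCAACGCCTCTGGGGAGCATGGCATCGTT
Ugt1a5: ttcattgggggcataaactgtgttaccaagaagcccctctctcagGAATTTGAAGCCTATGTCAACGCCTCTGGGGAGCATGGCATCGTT
Ugt1a6a: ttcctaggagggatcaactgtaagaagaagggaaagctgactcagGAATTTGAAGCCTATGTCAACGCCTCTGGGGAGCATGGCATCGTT
Ugt1a6b: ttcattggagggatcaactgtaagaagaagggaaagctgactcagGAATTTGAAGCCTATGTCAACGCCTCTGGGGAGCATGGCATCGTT
Ugt1a9: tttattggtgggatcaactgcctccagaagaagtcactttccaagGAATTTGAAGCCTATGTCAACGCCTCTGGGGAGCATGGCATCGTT
The capitals are the same in all 5 lines, whereas the lower-case parts differ. Between Ugt1a6a and Ugt1a6b the private coding parts were 97.0% identical, and for the other pairs of these 5 the identity was 54.4 to 58.3%. Of all 50-base words in its transcripts, Ugt1a6b shared 79.8% with another gene and Ugt1a1 58.2%. Every described Ugt1a gene had fractional counts in 7 or more of the 8 libraries, and the split between them is uncertain.

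A cluster of Sult2a genes on chromosome 7 poses the same difficulty, and it holds the members that varied most between libraries. The first 90 coding bases of 6 of them are shown 5′ to 3′, with capitals at each base that differs from Sult2a1.
Sult2a1: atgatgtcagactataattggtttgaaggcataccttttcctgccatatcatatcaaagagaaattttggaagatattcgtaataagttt
Sult2a2: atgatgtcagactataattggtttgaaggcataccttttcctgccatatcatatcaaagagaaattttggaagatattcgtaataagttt
Sult2a3: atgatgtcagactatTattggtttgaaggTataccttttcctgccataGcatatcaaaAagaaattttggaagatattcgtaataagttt
Sult2a5: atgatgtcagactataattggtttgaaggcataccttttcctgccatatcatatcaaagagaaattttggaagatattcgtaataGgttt
Sult2a6: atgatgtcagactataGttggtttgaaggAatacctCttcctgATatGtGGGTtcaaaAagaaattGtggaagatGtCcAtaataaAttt
Sult2a8: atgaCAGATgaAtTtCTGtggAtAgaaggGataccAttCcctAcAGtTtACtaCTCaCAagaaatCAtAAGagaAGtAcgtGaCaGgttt
Sult2a2 had 0 differences from Sult2a1 in this stretch, Sult2a5 had 1, Sult2a3 had 4, Sult2a6 had 16 and Sult2a8 had 37. Over the whole coding sequence Sult2a1 was 94.9% identical to Sult2a5, 93.7% to Sult2a3, 89.7% to Sult2a6 and 68.2% to Sult2a8. The annotated Sult2a2 transcript is shorter (582 coding bases against 855) and shared 62.1% of its 50-base words with other genes. The division of reads among Sult2a1, Sult2a2 and Sult2a5 is therefore uncertain, while Sult2a8 shared 1.72% of its words.

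The genotype difference was tested first in every member. None of the 29 members tested passed an adjusted p of 0.05 (0 higher, 0 lower, edgeR quasi-likelihood test adjusted over 11692 genes), against a background of 0.0342% of all tested genes, 4 genes that all fell. DESeq2 and limma-voom also called 0 members. At an unadjusted p under 0.05 there were 3 members (Sult2a5, Ugt1a6a and Ugt2b38), where all tested genes gave 14.0%. In no member were the 4 knockout libraries all above or all below the 4 control libraries, whereas 7.08% of all tested genes had groups that did not overlap (3.22% higher and 3.86% lower in knockout). Fold changes were positive for 19 and negative for 10 members, with a median of 0.09 on the log2 scale (all tested genes -0.03).

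**Figure D1:**
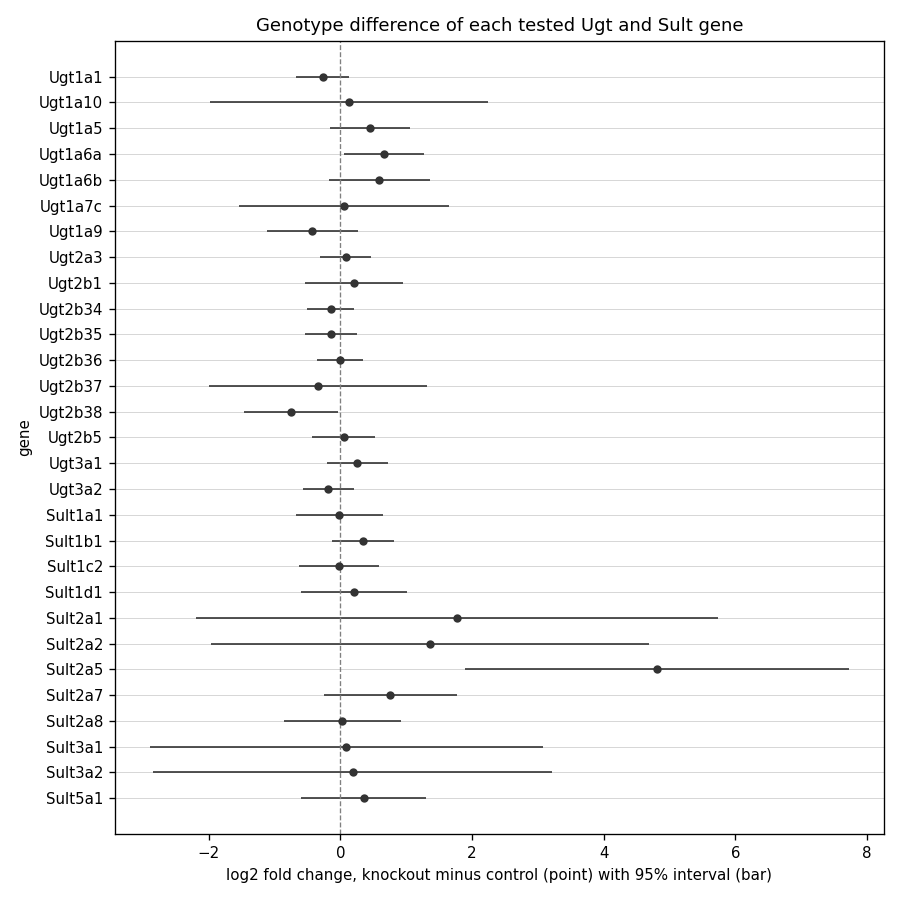
Log2 fold change of each of the 29 tested Ugt and Sult genes, knockout minus control (points), with 95% intervals from edgeR's quasi-likelihood fit (bars). The interval is narrow for Ugt2b36 at -0.36 to 0.35, wider for Ugt2b1 at -0.54 to 0.95, and widest in this set for Sult2a1 at -2.20 to 5.74.

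How large a change the data could have hidden differed between members. The 95% interval of the log2 fold change stayed between -1 and 1 for 13 of the 29 tested members. Of these, 9 were among the 17 tested Ugt genes and the rest among the 12 tested Sult genes. The spread between libraries of the same genotype set this width: its SD on the log2 scale had a median of 0.55 over the tested members and 0.32 over all tested genes. Ugt2b36 (SD 0.14) and Ugt2b34 (0.16) were among the least variable genes in these libraries, at percentiles 4.91 and 8.77 of all tested genes. Both were also highly abundant, at percentiles 98.7 and 98.3 of mean CPM, and the part of abundance in their low SD was not tested. The SDs of Sult2a1 (4.44), Sult2a2 (4.40) and Sult3a1 (4.21) all stood at percentile 99.9. The families thus held both some of the steadiest and some of the most variable transcripts in these libraries.

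Per kilobase of transcript, the most abundant member was Ugt2b5 at 523 ± 103 CPM per kb (mean ± SD over 8 libraries). Sult1a1 followed at 396 ± 136, then Ugt2b36 at 349 ± 30.5. Ugt2b1 (207 ± 73.3) and Sult2a1 (203 ± 338) came next, but the SD of Sult2a1 exceeded its mean, so its place in this order is not fixed. Of the bilirubin-conjugating gene Ugt1a1, 155 ± 26.8 CPM per kb was found, close to Ugt2b34 at 157 ± 18.8, and these levels did not differ beyond their spread. Levels of the Ugt1a genes and of Ugt2b5 rest on the division of shared reads.

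As a summed level, Ugt transcripts were steadier than Sult transcripts. The 21 Ugt genes together held 4359.7, 3693, 4682 and 3916 CPM in controls 1 to 4 and 3861, 4505, 4032 and 4322 CPM in knockouts 1 to 4, with overlapping groups. The 21 Sult genes held 1088, 1802, 1351 and 926 CPM in the controls and 3152, 991, 1396 and 1167 CPM in the knockouts. Knockout 1 was the highest library for Sult transcripts, and its Sult2 sum of 1841 CPM stood against 317 to 817 CPM in the other 7. The Ugt2b genes supplied 60.8 to 75.3% of Ugt CPM, lowest in knockout 1 and highest in control 3. The Ugt1a genes supplied 12.6 to 24.7%, lowest in control 3 and highest in control 2.

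**Figure D2:**
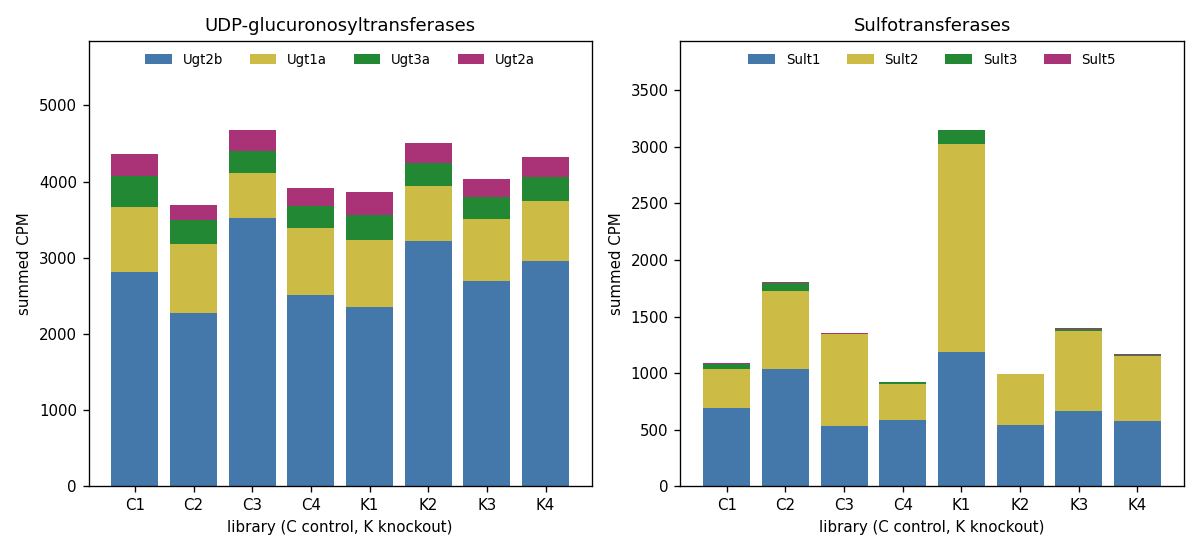
Summed CPM of Ugt subfamilies (left) and Sult subfamilies (right) in each library, C for control and K for knockout; Sult4 and Sult6 are too low to draw. The Ugt bars lie between 3693 and 4682 CPM, whereas the Sult bar of knockout 1 reaches 3152 CPM through Sult1 and Sult2.

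Among Ugt1a genes, whose products conjugate bilirubin and phenols, the Ugt1a6 genes had the largest positive fold changes of the Ugt genes. Ugt1a6a (ENSMUSG00000054545, chromosome 1, 88134809 to 88218997), a phenol-conjugating enzyme, was at 76.0, 33.1, 59.0 and 86.3 CPM in controls 1 to 4 and at 71.6, 108, 108 and 116 CPM in knockouts 1 to 4. Knockouts 2 to 4 were above every control, while knockout 1 lay within the control range. Its log2 fold change was 0.67 (SE 0.28, adjusted p = 0.321), and exact permutation of the 8 CPM values gave a two-sided p = 0.0857, where 0.0286 is the smallest that 70 assignments allow. Its close copy Ugt1a6b had 59.5, 20.9, 73.3 and 70.1 CPM in control and 53.4, 98.4, 79.7 and 106 CPM in knockout, with control 2 lowest and a log2 fold change of 0.59 (SE 0.35, adjusted p = 0.465). Because reads of these copies can be exchanged, their sum is also given: 136, 54.0, 132 and 156 CPM in control and 125, 206, 188 and 222 CPM in knockout. The sum overlapped between the groups as well, through knockout 1. Library 2 of the controls was far below the others in both copies, and without it the values fell to 0.45 and 0.32 on the log2 scale.

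Ugt1a1 (ENSMUSG00000089960, chromosome 1, 88211959 to 88218997), the bilirubin glucuronosyltransferase, was at 368, 417, 301 and 423 CPM in controls 1 to 4 and 377, 265, 322 and 288 CPM in knockouts 1 to 4. The groups overlapped, with controls 1 and 3 inside the knockout range, and the log2 fold change was -0.27 (95% interval -0.67 to 0.13, adjusted p = 0.518). Ugt1a9, another enzyme of phenols and drugs, was at 183, 319, 92.7 and 173 CPM in control and 183, 119, 129 and 139 CPM in knockout, and control 2 was the highest library by a wide margin. Its log2 fold change of -0.43 (SE 0.31, adjusted p = 0.560) became -0.07 without control 2. Ugt1a5 had 159.8, 112, 61.8 and 132 CPM in control, lowest in control 3, against 199, 126, 177 and 131 CPM in knockout, a log2 fold change of 0.45 (SE 0.28, adjusted p = 0.486). As a level summed over the locus, where the split of shared exons plays no part, Ugt1a genes held 849.6, 912, 588 and 886 CPM in control and 890.2, 722, 819 and 783 CPM in knockout. Control 3 was the lowest library of all 8 and the groups overlapped. Ugt1a10 and Ugt1a7c were scarce, with at most 8.44 and 2.20 CPM, both highest in control 2 and at 0 counts in control 3.

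**Figure D3:**
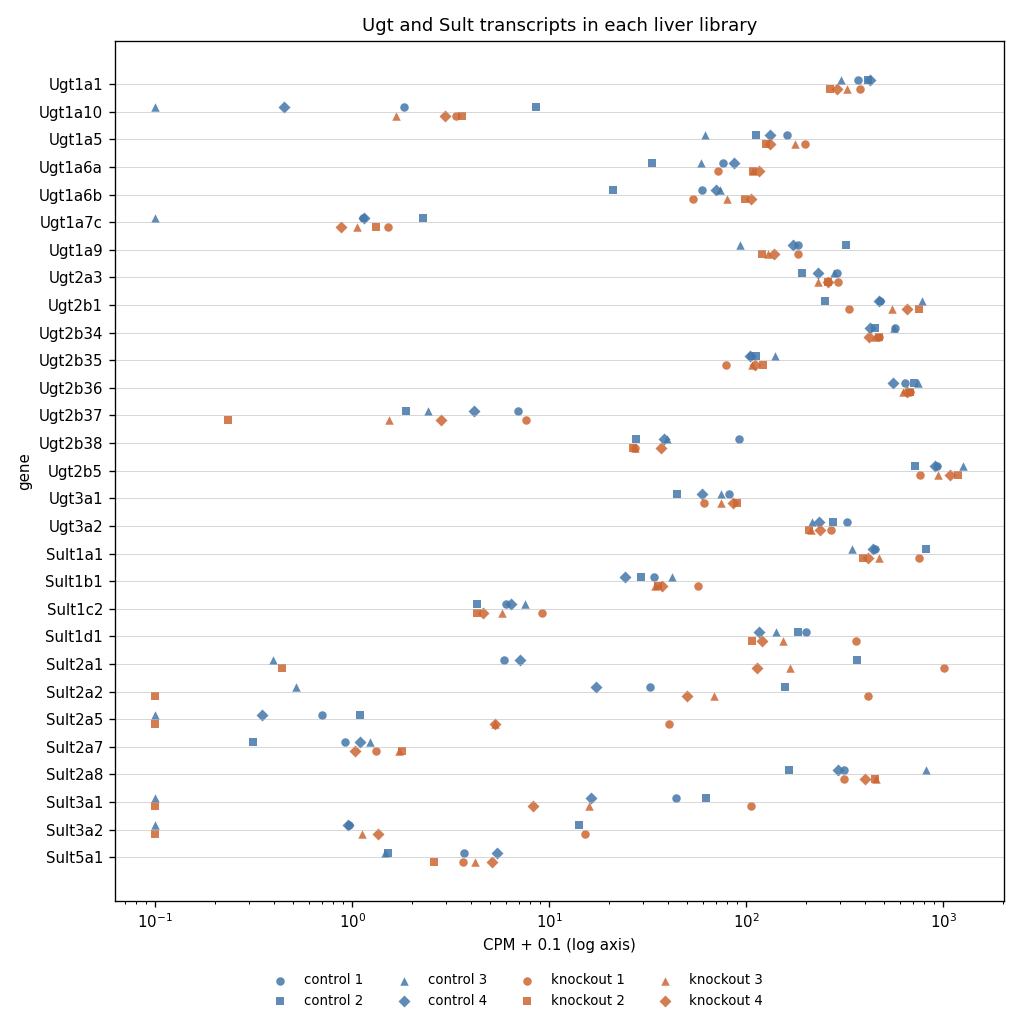
CPM plus 0.1 of the 29 described Ugt and Sult genes in each library on a log axis; colour gives the genotype and marker shape the library number. Points of Ugt2b36 lie between 552 and 742 CPM, whereas those of Sult2a1 run from 0.298 to 1001 CPM.

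Ugt2b genes, which encode enzymes of steroids, bile acids and drugs, form the bulk of liver glucuronosyltransferase transcripts. Ugt2b36 (ENSMUSG00000070704, chromosome 5, 87065927 to 87092555) was at 635, 711, 742 and 552 CPM in controls 1 to 4 and 674, 677, 624 and 657 CPM in knockouts 1 to 4. The knockout values lay inside the control range, and the difference was -0.00 (95% interval -0.36 to 0.35, adjusted p = 0.995). Ugt2b5, the most abundant of them, had 930.0, 719, 1263 and 909.8 CPM in control and 759, 1180.2, 935 and 1080.1 CPM in knockout, with a log2 fold change of 0.05 (95% interval -0.43 to 0.53, adjusted p = 0.934). Its lowest levels fell in control 2 and knockout 1, both without Y-linked reads, and its highest in control 3 and knockout 2, both with them; control 1, also without Y-linked reads, was between. Ugt2b34 was at 502 ± 74.2 CPM in the controls and 453 ± 24.2 CPM in the knockouts (n = 4 each) and Ugt2b35 at 115 ± 16.5 CPM in the controls and 104 ± 18.2 CPM in the knockouts (n = 4 each). Their log2 fold changes of -0.15 (SE 0.16, adjusted p = 0.711) and -0.15 (SE 0.18, adjusted p = 0.741) were smaller than the spread between libraries allows to call.

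Ugt2b38 (ENSMUSG00000061906, chromosome 5, 87409942 to 87424203) had the most negative value of the members. It was at 91.7, 27.4, 39.6 and 38.1 CPM in controls 1 to 4 and 27.2, 26.4, 27.0 and 36.6 CPM in knockouts 1 to 4. Control 1 stood far above all others, and control 2 lay within the knockout range. Its log2 fold change was -0.75 (SE 0.33, adjusted p = 0.341) with an exact two-sided permutation p of 0.0571, and without control 1 it was -0.25 (adjusted p = 0.654). Its coding sequence is 97.0% identical to that of Ugt2b5, which was 10.1 to 44.7 times as high in estimated counts, so its level depends on how reads of Ugt2b5 were assigned. Ugt2b37, 94.7% identical to Ugt2b5, was low at 0.135 to 7.501 CPM, with a log2 fold change of -0.34 (SE 0.75, adjusted p = 0.868). Ugt2b1, which shares no 50-base word with another gene, was at 477, 249.7, 778 and 472 CPM in control and 332, 749, 549 and 652 CPM in knockout. Control 2 and knockout 1 were the lowest libraries and control 3 and knockout 2 the highest, the same order as for Ugt2b5, and the log2 fold change was 0.21 (SE 0.34, adjusted p = 0.813).

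Ugt2a3 (n = 4 each) was at 247 ± 44.7 CPM in the controls and 261 ± 25.6 CPM in the knockouts, a log2 fold change of 0.08 (95% interval -0.31 to 0.46, adjusted p = 0.870). Ugt3a genes encode enzymes known in humans to use other UDP-sugars than UDP-glucuronate. Ugt3a2 was at 324, 274, 216 and 234 CPM in control and 269, 208, 213 and 235 CPM in knockout, with a log2 fold change of -0.18 (SE 0.18, adjusted p = 0.668). Ugt3a1 was at 81.7, 44.1, 74.1 and 59.2 CPM in control and 61.0, 89.4, 74.7 and 85.3 CPM in knockout, a log2 fold change of 0.26 (SE 0.21, adjusted p = 0.594). Both overlapped between the groups, and for Ugt3a2 control 1 was the highest library while for Ugt3a1 control 2 was the lowest.

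Within the Sult1 subfamily, Sult1a1 (ENSMUSG00000030711, chromosome 7, 126672865 to 126676432), the main phenol sulfotransferase of liver, was at 447, 820.5, 343 and 439.8 CPM in controls 1 to 4 and 751, 391, 471 and 415 CPM in knockouts 1 to 4. Control 2 and knockout 1 were highest, both without Y-linked reads, and control 1, also without them, was level with control 4. The log2 fold change was -0.02 (95% interval -0.67 to 0.64, adjusted p = 0.987). Sult1d1, a sulfotransferase of catecholamines, was at 201, 184, 141 and 116 CPM in control and 361, 106, 153 and 119.5 CPM in knockout, again highest in knockout 1, with a log2 fold change of 0.21 (SE 0.37, adjusted p = 0.833). Without knockout 1 that value turned to -0.34. Sult1b1, which acts on thyroid hormones, had 33.8, 29.0, 41.8 and 24.2 CPM in control and 56.8, 35.7, 34.4 and 37.2 CPM in knockout, a log2 fold change of 0.35 (SE 0.21, adjusted p = 0.481). Sult1c2 was low, at 4.18 to 9.03 CPM (log2 fold change -0.02, SE 0.28, adjusted p = 0.980). All 4 genes overlapped between the groups.

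Sult2a genes, which encode sulfotransferases of hydroxysteroids and bile acids, included the members with the largest spread between libraries. Sult2a1 (ENSMUSG00000078798, chromosome 7, 13796246 to 13837409) was at 5.81, 362, 0.298 and 7.04 CPM in controls 1 to 4 and 1001, 0.338, 166 and 113 CPM in knockouts 1 to 4. Its level in knockout 1 was 3360.2 times that in control 3. Control 3 and knockout 2 were near 0, controls 1 and 4 were low, and control 2 and knockouts 1, 3 and 4 were high, so that high and low libraries occurred in both genotypes. The log2 fold change of 1.77 (95% interval -2.20 to 5.74, adjusted p = 0.681) rested on single libraries: it was 6.17 without control 2 and -0.01 without knockout 1. Sult2a2 had 32.2, 157, 0.417 and 17.2 CPM in control and 415, 0, 68.0 and 49.7 CPM in knockout, a log2 fold change of 1.37 (SE 1.51, adjusted p = 0.709). The ratio of Sult2a1 to Sult2a2 counts was 2.30 in control 2 and 2.41, 2.44 and 2.26 in knockouts 1, 3 and 4, but 0.180 and 0.409 in controls 1 and 4. In controls 1 and 4 Sult2a2 was thus the higher of these paralogs, by estimated counts that share reads.

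Sult2a5 (ENSMUSG00000078799, chromosome 7, 13623967 to 13670807) had the smallest p of all members. It was at 0.602, 0.993, 0 and 0.2497 CPM in controls 1 to 4, or 14, 14, 0 and 5 rounded counts, and at 40.6, 0, 5.17 and 5.20 CPM in knockouts 1 to 4, or 769, 0, 86 and 100 rounded counts. Knockouts 1, 3 and 4 were above every control, whereas knockout 2 had 0 counts, so the groups overlapped. The log2 fold change was 4.81 (SE 1.32, adjusted p = 0.192), and the exact two-sided permutation p of the 8 CPM values was 0.143. Without knockout 1 it was 2.93 (adjusted p = 0.229). When the model also held the log2 level of Y-linked reads it was 5.44 with an adjusted p of 0.0363, the only alternative in which a member passed. When it held their presence instead the adjusted p was 0.0563. Control 2, the library with 362 CPM of Sult2a1, held only 0.993 CPM of Sult2a5. The Sult2a1 to Sult2a5 count ratio was 365 there and 21.6 to 32.1 in knockouts 1, 3 and 4.

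Sult3a genes, of an amine-sulfating subfamily, followed a related pattern. Sult3a1 (ENSMUSG00000069668, chromosome 10, 33857721 to 33879532) was at 44.1, 62.6, 0 and 16.1 CPM in controls 1 to 4 and 106, 0, 15.8 and 8.12 CPM in knockouts 1 to 4. It had 0 counts in control 3 and knockout 2, and was highest in the libraries without Y-linked reads, knockout 1, control 2 and control 1. Its log2 fold change was 0.09 (95% interval -2.90 to 3.07, adjusted p = 0.983). Sult3a2 was at 0.861, 14.1, 0 and 0.849 CPM in control and 15.0, 0, 1.02 and 1.249 CPM in knockout, high only in control 2 and knockout 1 (log2 fold change 0.18, SE 1.37, adjusted p = 0.963). Control 1, with more Sult3a1 than any Y-positive library, was low in Sult3a2 and in Sult2a1. Beside these values stand 12 genes known to be female-biased in mouse liver, all tested, none called (0 higher, 0 lower) and with groups that overlapped in every gene. Their summed level was 1536, 12628, 334 and 1495 CPM in controls 1 to 4 and 6909, 336, 1499 and 1126 CPM in knockouts 1 to 4, with Cyp2b13 and Cux2 at 0 in control 3. The smallest p among them belonged to A1bg (log2 fold change -6.75, SE 1.85, adjusted p = 0.192) and Cyp4a10 (-1.17, SE 0.61, adjusted p = 0.415). Single genes carried much of this sum. Cyp4a10 held 249 CPM of it in control 3 and 275 CPM in knockout 2, and Cyp3a41a held 8063 CPM in control 2. Cyp4a10 itself was highest in control 2 (1378 CPM) but lowest in knockout 1 (161 CPM). The 12 male-biased genes, 11 of them tested and 0 called, summed to 1102, 4327, 22925 and 6949 CPM in control and 598, 14939, 11962 and 13426 CPM in knockout, with Cyp4a12b at 0 in control 1 and knockout 1 and Hsd3b5 at 0 in knockout 1, and Moxd1 at 0 in 6 libraries. Among these the smallest p belonged to Cyp7b1 (log2 fold change 1.83, SE 0.57, adjusted p = 0.227) and Cyp2u1 (1.51, SE 0.91, adjusted p = 0.473). Serpina1e alone held 4236 CPM of the male-biased sum of control 2. In that library Mup20 was at 31.8 CPM, Cyp2d9 at 12.0 CPM and Elovl3 at 1.06 CPM. Control 3 and knockout 2, where Sult3a1 had 0 counts, were the lowest libraries in the female-biased sum and the highest in the male-biased sum. No sex is given in the labels, and a difference between sexes was not tested; the genotype fits that hold Y-linked reads called 0 Sult3a genes.

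**Figure D4:**
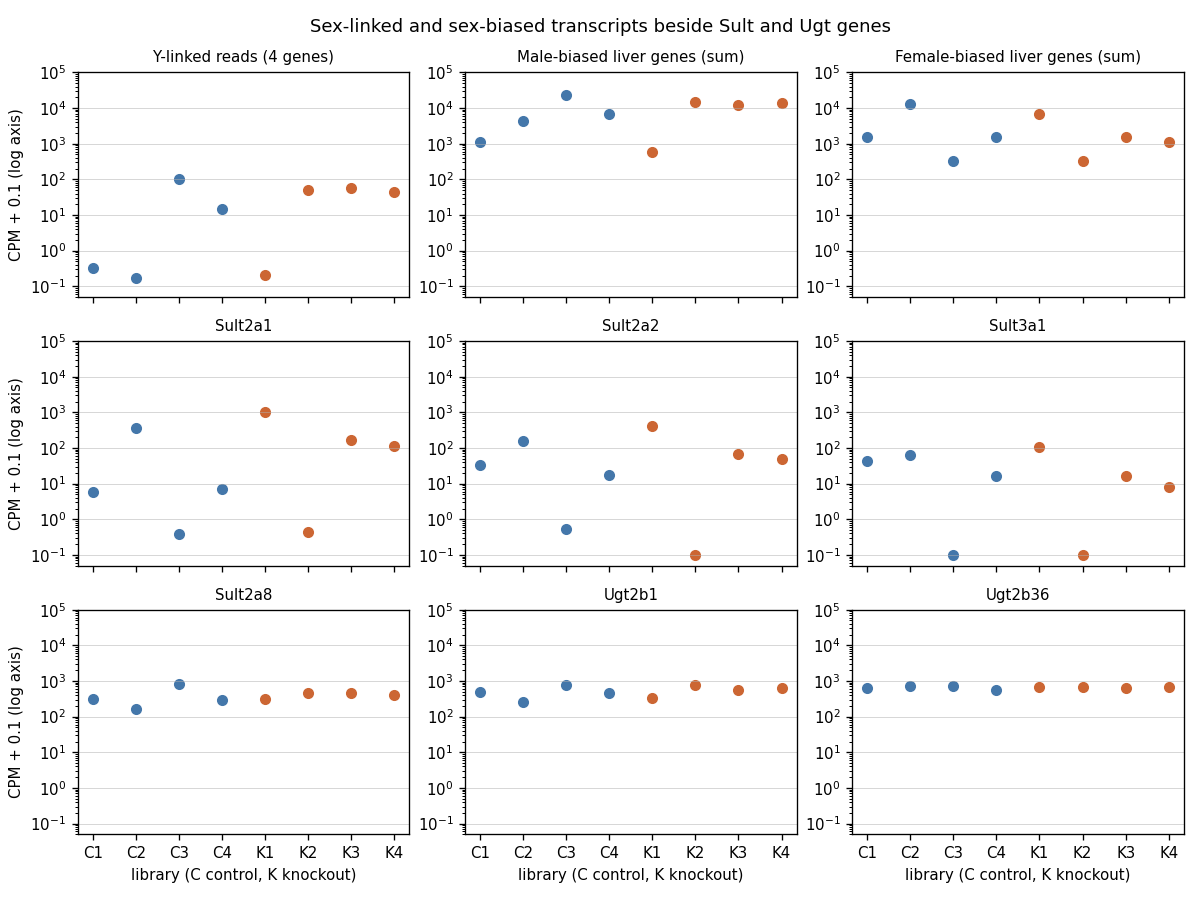
CPM plus 0.1 per library on log axes for Y-linked reads, the sums of male-biased and female-biased liver genes, and 6 Ugt and Sult genes; C is control and K is knockout. Sult3a1 and Sult2a2 have their lowest points in C3 and K2, where the female-biased sum is 334 and 336 CPM, while Ugt2b36 stays between 552 and 742 CPM. Cyp4a10 alone holds 249 and 275 CPM of the female-biased sum in C3 and K2.

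Sult2a8 (ENSMUSG00000030378, chromosome 7, 14410686 to 14446769), a bile acid sulfotransferase of mouse liver, did not follow its neighbours. It was at 312, 165, 815 and 291 CPM in controls 1 to 4 and 312, 449, 456 and 399.7 CPM in knockouts 1 to 4. Control 3, the library with the lowest Sult2a1, was the highest in Sult2a8, and control 2 the lowest, and the knockouts lay between. The log2 fold change was 0.03 (95% interval -0.86 to 0.92, adjusted p = 0.980), and without control 3 it was 0.66 (adjusted p = 0.168). Sult2a7 was scarce at 0.213 to 1.69 CPM (log2 fold change 0.76, SE 0.46, adjusted p = 0.472), as was Sult5a1 at 1.37 to 5.34 CPM (0.36, SE 0.43, adjusted p = 0.737).

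The other 13 members were under the count minimum and were not tested. Of these, 4 had 0 counts in every library (Sult1c1, Sult6b2, Ugt2a1 and Ugt2a2), and Sult2b1, a cholesterol sulfotransferase, Sult4a1, known from brain, and Sult6b1 had at most 7 counts. Ugt1a2 and Ugt1a8 reached at most 16 counts and Sult2a4 at most 6. Sult2a3 held 3, 4, 0 and 7 rounded counts across the control libraries and 1165, 0, 209 and 122 across the knockouts, and Sult2a6 held 0, 0, 0 and 0 and 178, 0, 5 and 22. Sult1e1, the oestrogen sulfotransferase, held 9, 3, 0 and 7 counts in control and 162, 3, 15 and 22 in knockout. These 3 genes were highest in knockout 1.

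The genes that supply, export and control conjugation were then counted. Of 9 genes of UDP-glucuronate supply and hydrolysis, 0 were called, and their median log2 fold change was 0.17 (all tested genes -0.03). Ugdh, the dehydrogenase that makes UDP-glucuronate, was at 99.4, 74.5, 149.6 and 123.2 CPM in control and 152, 197, 169 and 193 CPM in knockout. Every knockout library was above every control library, with a log2 fold change of 0.67 (SE 0.22, adjusted p = 0.244). Ugdh was the only gene of the list whose groups did not overlap, against 7.08% of all tested genes (3.22% higher in knockout). Slc35d2, a nucleotide sugar transporter, had the next smallest p (log2 fold change 0.27, SE 0.13, adjusted p = 0.379). Of 10 tested genes of PAPS supply and sulfate handling, 0 were called, with a median of 0.23 and overlapping groups in all. Papss1, a PAPS synthase, had a log2 fold change of 0.56 (SE 0.21, adjusted p = 0.295) and Slc35b3, which carries PAPS into the Golgi, -0.39 (SE 0.24, adjusted p = 0.483).

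Of 10 transporters of conjugates, 0 were called (median -0.03). Abcc4, an exporter of the hepatocyte's blood side, had a log2 fold change of 0.72 (SE 0.26, adjusted p = 0.282), and Abcc6 one of 0.29 (SE 0.17, adjusted p = 0.466). Of 19 nuclear receptors and other regulators, 0 were called (median -0.08). Cebpa, a liver transcription factor named after its values were seen, was at 53.0 ± 6.66 CPM in the controls and 72.6 ± 2.66 CPM in the knockouts (n = 4 each), higher in all knockouts (0.45, SE 0.14, adjusted p = 0.227). Arnt, the partner of the aryl hydrocarbon receptor, was at 17.6 ± 2.27 CPM in the controls and 12.1 ± 1.7995 CPM in the knockouts (n = 4 each), lower in all knockouts (-0.54, SE 0.16, adjusted p = 0.223). Among all tested genes, 3.22% were higher and 3.86% lower in every knockout than in every control.

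Promoters were searched for the motif TTCNNNGAA, the palindromic form bound by STAT proteins, because Stat3 is the deleted gene. RefSeq promoter sequences (GRCm38.p6, 250 bases before to 50 after the start) were found for 36 of the 42 members, with 39 promoters among them. The other 6 members, of which 5 are described members, could not be searched. Sult2a1 and Sult2a2 were among these 6. The motif, which reads the same on both strands, was found in 2 of the 36 members, Ugt1a6a and Sult3a1. Over all 32851 promoters of that length the share with the motif was 8.30%, counted by promoter and not by gene. Both member promoters with the motif are printed 5′ to 3′ with the motif in capitals.
Ugt1a6a, chr1:88134559-88134858, plus strand: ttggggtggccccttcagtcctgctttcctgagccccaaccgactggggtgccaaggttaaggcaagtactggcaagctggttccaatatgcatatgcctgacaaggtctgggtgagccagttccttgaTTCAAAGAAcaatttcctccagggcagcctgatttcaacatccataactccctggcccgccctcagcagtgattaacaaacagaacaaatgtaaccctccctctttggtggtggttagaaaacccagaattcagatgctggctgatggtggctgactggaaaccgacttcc
Sult3a1, chr10:33857472-33857771, plus strand: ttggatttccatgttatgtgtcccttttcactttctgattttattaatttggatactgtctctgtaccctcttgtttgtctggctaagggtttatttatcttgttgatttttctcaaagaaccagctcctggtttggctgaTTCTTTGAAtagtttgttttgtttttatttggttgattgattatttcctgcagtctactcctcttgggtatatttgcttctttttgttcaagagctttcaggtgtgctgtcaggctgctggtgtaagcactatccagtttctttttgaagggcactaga
The motif begins 121 bases before the start in Ugt1a6a and 109 bases before it in Sult3a1. Neither gene passed the genotype test, as given above, and the letters alone do not show binding.

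Marker genes were those of the labelled tissue. The 8 hepatocyte markers summed to 119465 to 347953 CPM in control and 108315 to 159712 CPM in knockout, the highest in control 2 through albumin, with 0 called. Kidney and intestine markers, of other tissues rich in these enzymes, were at or near 0 (Slc34a1, Kap and Cdx2 at 0 counts) apart from Fabp2, which liver also expresses. The 7 Kupffer cell markers summed to 25.5 to 433 CPM in control and 45.4 to 82.6 CPM in knockout, lowest in control 3, and 0 were called although all 7 fold changes were negative (median -2.02). Cholangiocyte (35.3 to 150.4 and 36.2 to 56.1 CPM) and sinusoidal endothelial markers (32.9 to 92.6 and 69.7 to 78.2 CPM) likewise had 0 called. Of the stellate (163 to 259 and 212 to 366 CPM) and lymphocyte markers (3.10 to 12.1 and 31.1 to 147 CPM), 0 were called. Spp1 alone held 33.3 to 143 CPM of the cholangiocyte sum in control and 32.3 to 52.1 CPM in knockout. Igkc alone held 2.56 to 10.5 CPM of the lymphocyte sum in control and 29.5 to 143 CPM in knockout. Mean Cd3e and Nkg7 levels were lower in knockout, those of Cd79a and Trac higher, and each overlapped between the groups. Every knockout was above every control for 3.22% of all tested genes, and among markers for 3 of 5 stellate genes, Lrat (0.65, SE 0.19, adjusted p = 0.217 on the log2 scale), Reln (0.60, SE 0.20, adjusted p = 0.247) and Des (0.69, SE 0.23, adjusted p = 0.255), for Apoc3 of hepatocytes (0.64, SE 0.23, adjusted p = 0.272) and for Igkc of plasma cells (3.06, SE 0.57, adjusted p = 0.0761), genes named after their values were seen. The part of other cell types in Ugt and Sult levels was not tested.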

How the data were processed

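Per the labels' protocols, liver RNA was extracted with Trizol and sequenced on an Illumina HiSeq X10. The submitters' processing notes name CASAVA 1.8, TopHat2, Bowtie and GRCm38; for the counter, annotation and strand setting the entry is: not given in the sources used here. Values deposited by the authors are expected counts without normalization, of which 94.2% are whole. These were rounded, filtered by filterByExpr, scaled by TMM and tested with glmQLFit and glmQLFTest, the quasi-likelihood test of edgeR 4.0.16 in R 4.3.3, with Benjamini-Hochberg adjustment over 11692 genes; SE and 95% intervals were derived from the F statistic. Alternatives used DESeq2 1.42.0 and limma 3.58.1. CPM use TMM-scaled sizes. CPM per kb divides by the length of the GENCODE M21 transcript with the longest coding sequence; all 42 identifiers matched. At these library totals 10 counts are under 1 CPM. The procedure was tested on simulated data, where it recovered 43.7% of log2 changes of 1 and 95.8% of log2 changes of 2. Of 699 calls there, 25 were false. The simulated spread followed the trend over all genes, so these rates do not hold for members as variable as Sult2a1 or Sult3a1. No libraries were duplicates by a chi-square comparison (lowest median per gene 1.26). Members and lists were chosen with earlier results of these data known. Described in full were Stat3, in each subfamily the 2 members with the highest mean CPM and the 2 with the smallest p, and of each pathway list the 2 genes with the smallest p; members called or without overlap were to be named, and there were 0. A result for 1 gene of these lists is not reported here. Other named genes were chosen after their values were seen. Alternatives changed scaling, filter, test, Y-linked terms, replicate block and libraries.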

Additional observations from a re-analysis of the deposited data

Results flagged for a closer look

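A library far from the other 3 of its group was found in 9 of 58 gene and group combinations of the described members (15.5%), against 6.43% over all tested genes. The limit used is passed by about 1 in 20 groups of independent normal values, and Sult2a or Sult3a paralogs share reads, so these genes are not independent of each other. Knockout 1 accounted for 6 of them. It stood above the other knockouts in Sult2a1 (1001 CPM against 0.338 to 166 CPM), Sult2a2 (415 CPM against 0 to 68.0 CPM), Sult2a5 (40.6 CPM against 0 to 5.20 CPM), Sult3a1 (106 CPM against 0 to 15.8 CPM), Sult3a2 (15.0 CPM against 0 to 1.249 CPM) and Sult1b1 (56.8 CPM against 34.4 to 37.2 CPM). It was also the only knockout library with fewer than 10 Y-linked counts, and the part of this in these values was not tested. Control 2 stood above the other controls in Sult2a1 (362 CPM against 0.298 to 7.04 CPM) and Sult3a2 (14.1 CPM against 0 to 0.861 CPM), and knockout 4 above the other knockouts in Ugt2b38 (36.6 CPM against 26.4 to 27.2 CPM).

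Among members with too few libraries above the minimum for the test, 3 had counts in knockout 1 well above any control library: Sult2a3 with 1165 counts (controls 0 to 7), Sult2a6 with 178 (controls 0) and Sult1e1 with 162 (controls 0 to 9). Knockouts 2, 3 and 4 held 0, 209 and 122 counts of Sult2a3, 0, 5 and 22 of Sult2a6, and 3, 15 and 22 of Sult1e1. The search looked only for members higher in a knockout library, so a member high in control alone could not be listed.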

How the results depend on the processing

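The count of members called was 0 under the alternatives run, with 1 exception, the model with the Y-linked level (1, Sult2a5). The count over all genes, 4 in the report, was 11 with upper quartile scaling, 1 with total count scaling, 62 with no low-count filter, 8 with 1 CPM in 4 libraries, 269 in DESeq2, 0 in limma-voom (1639 at an unadjusted p under 0.05 in edgeR), 27 and 50 in models with the presence and the level of Y-linked reads, 125 in Y-positive libraries alone, 79 at an adjusted p under 0.1, and 0 to 324 with single libraries left out (324 omitting control 3, 67 omitting knockout 1, 7 and 1 omitting controls 2 and 1, and 0 for each other library). With the replicate number as a block it was 0, and 0 members were called. Same-numbered libraries correlated at -0.247 to 0.324 in their deviations, and not every library correlated best with its own number, so the numbers were not taken as pairing. Uncalled log2 values, Sult2a1 (1.77), Sult2a2 (1.37) and Cyp4a10 (-1.17) included, changed sign with limma-voom (Sult1a1 0.00564, Sult3a1 -0.21, Ugt2b36 0.00202, Cyp3a41a 0.0754); replicate block (Sult1a1 0.0204, Ugt2b36 0.00418, Cyp3a41a 2.26); Y-linked presence in the model (Sult1a1 0.17, Sult2a8 -0.0792, Ugt2b1 -0.0107, Ugt2b36 0.00901, Ugt2b5 -0.0607, Cyp3a41a 1.15, Mup20 -0.13); Y-linked level in the model (Sult1a1 0.19, Sult2a8 -0.0622, Ugt2b1 -0.0189, Ugt2b5 -0.0706, Cyp3a41a 2.20); Y-positive libraries alone (Sult1a1 0.12, Sult1d1 -0.0264, Sult2a8 -0.35, Sult3a1 -0.0294, Ugt2a3 -0.0259, Ugt2b36 0.0120, Ugt2b5 -0.0291, Cyp4a10 0.13, Cyp3a41a 1.68, Mup20 -0.18); total count scaling (Sult2a8 -0.0110, Ugt2b5 -0.0143); RLE scaling (Ugt2b36 0.00794); upper quartile scaling (Ugt2b36 0.00669); no low-count filter (Ugt2b36 3.5e-05); DESeq2 (Ugt2b36 0.00801), and over left-out libraries ran as follows: Sult1a1 -0.27 to 0.31, Sult1c2 -0.31 to 0.11, Sult1d1 -0.34 to 0.40, Sult2a1 -0.00711 to 6.17, Sult2a2 -0.39 to 2.996, Sult2a8 -0.23 to 0.66, Sult3a1 -1.93 to 0.69, Sult3a2 -2.30 to 2.87, Ugt1a10 -0.27 to 1.95, Ugt1a7c -0.35 to 0.62, Ugt2a3 -0.0267 to 0.17, Ugt2b1 -0.0140 to 0.52, Ugt2b36 -0.0758 to 0.0586, Ugt2b37 -1.37 to 0.14, Ugt2b5 -0.0652 to 0.21, Cyp4a10 -1.45 to 0.12, Cyp3a41a -2.43 to 2.79, Mup20 -0.0184 to 2.50. The cause was not tested. Genes named after their values were seen were run under the same alternatives, added after seeing the data. A1bg gained a call without control 3, Sult2a5 in the model with the Y-linked level, and Igkc with no low-count filter, in DESeq2 and without control 3 or knockout 1 (adjusted p 0.000746 to 0.0411); all 9 lost calls were of Stat3. Depth limits the members under 1 CPM.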

Other observations

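Genes outside the conjugation families, chosen after their values were seen, were set beside Sult2a and Sult3a. Cyp3a41a, a female-biased cytochrome P450, was at 369.9, 8063, 2.62 and 247 CPM in controls 1 to 4 and 4502, 1.62, 683 and 519.6 CPM in knockouts 1 to 4, lowest in control 3 and knockout 2 as for Sult2a1. Mup20, a male urinary protein that acts as a pheromone, was at 94.9, 31.8, 12649.9 and 2554 CPM in control and 62.0, 7734, 6033 and 6321 CPM in knockout. Control 2 and knockout 1 were the libraries lowest in Mup20 and highest in Cyp3a41a. A1bg, another female-biased liver gene, was at 438 CPM in control 2 and at most 3.96 CPM in every other library, knockout 1 included, so that control 2 and knockout 1 did not share every female-biased transcript.

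Knockouts 3 and 4 carried both kinds of transcript. As a share of knockout 1, the Sult2a, Sult3a and Sult1e members with at least 10 counts there had a median level of 15.6% (range 3.20 to 146%, 10 genes) in knockout 3 and 12.1% (range 7.65 to 128%, 10 genes) in knockout 4. Sult2a8 and Sult2a7 stood apart from the other 8 members, at 146 and 134% in knockout 3 and 128 and 77.1% in knockout 4, with no other member above 20.4% in either library. The female-biased genes had medians of 31.98% (range 15.2 to 131%, 12 genes) and 18.8% (range 11.5 to 146%, 12 genes). As a share of knockout 2, the male-biased genes had medians of 73.9% (range 54.9 to 88.3%, 11 genes) in knockout 3 and 86.2% (range 63.3 to 104%, 11 genes) in knockout 4. Control 4 held male-biased genes at a median of 25.0% (range 20.2 to 46.4%, 11 genes) of control 3 and female-biased genes at 85.5% (range 47.4 to 153%, 12 genes) of control 1. Control 1 was itself far below control 2, the other control without Y-linked reads, in the female-biased sum. That sum was 1536 CPM in control 1, 1495 CPM in control 4 and 12628 CPM in control 2, where Cyp3a41a alone held 8063 CPM. Shares of control 2 were not taken, so the 85.5% holds for control 1 as the reference only. The Y-linked level of control 4 was 14.7 CPM, against 99.6 CPM in control 3. These shares are descriptions of single libraries, and what gives these 3 libraries both kinds of transcript was not tested.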
